A study of Homo sapiens with 8 samples.

Results

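The brain-expressed X-linked (BEX) genes encode short adaptor proteins, and BEX1, BEX2, BEX4 and BEX5 are described here in arrays of a T-cell leukemia line. They were chosen by symbol: every probe set of the deposited table that the platform annotation gives to a member alone was taken, which made 4 probe sets for 4 genes, of 54675 probe sets and 19775 named genes in all. The family was picked because BEX1 was known to read higher with stromal co-culture, so the co-culture values of its members are given as a description without a test. Total RNA came from ALL-SIL cells, a long-established human line of T-cell acute lymphoblastic leukemia in which the homeobox oncogene TLX1 is active, and the 8 arrays fall into 4 groups of 2. In the co-culture experiment all cells carried a lentiviral TCRα/β-GFP vector, which adds a T-cell receptor and a green marker, and either spent 48 h in co-culture with OP9-DL1, mouse bone marrow stromal cells that present the Notch ligand DL1, or had no stroma. The vector's receptor was designed from that of Jurkat cells, while the growth protocol speaks of a murine receptor, TCR-HY, and of sorting for receptor or GFP, so which receptor these cells carried is not settled by the labels. The labels call the first group TCR activation, but stroma, Notch ligand and receptor engagement came together in it and cannot be told apart. In the hairpin experiment no co-culture is named, and puromycin-selected cells carried either a single hairpin against TLX1 or the pLKO.1-puro control. The labels do not say that the replicates of a group came from separate cultures, so a p-value here speaks of array-to-array spread alone, and that spread may be technical.

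BEX proteins have no known enzymatic activity and bind other proteins. The founding interaction is with the intracellular part of the p75 neurotrophin receptor NGFR, which BEX1 and the related BEX3 bind; BEX2 has been found in a DNA-binding complex with the leukemia oncogene LMO2, and BEX4 binds tubulin. The genes are best known from neurons, and BEX1 and BEX2 are often silenced by promoter methylation in tumours.

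All members lie on Xq22 among genes of the related TCEAL family. In the RefSeq order along the chromosome, BEX5 comes first, followed after 11 other protein-coding genes by BEX1, BEX4, BEX2 and BEX3. Only NXF3, an RNA export factor gene, lies between BEX1 and BEX4, and 2 protein-coding genes lie between BEX4 and BEX2. RefSeq lists BEX2 as an older name of BEX1 and BEX1 as an older name of BEX2, so the probe sets were also matched by gene identifier, and symbol and identifier pointed to the same gene for each. The 250 bases before the transcription start of each member are printed next because the members' readings did not move together, and the windows show how far their upstream sequences are alike. They are from RefSeq (GRCh38.p14), 5′ to 3′ on the gene's strand, and capitals mark CACGTG, an E-box, which reads the same on both strands.
BEX1, chrX:103064172-103064421, minus strand: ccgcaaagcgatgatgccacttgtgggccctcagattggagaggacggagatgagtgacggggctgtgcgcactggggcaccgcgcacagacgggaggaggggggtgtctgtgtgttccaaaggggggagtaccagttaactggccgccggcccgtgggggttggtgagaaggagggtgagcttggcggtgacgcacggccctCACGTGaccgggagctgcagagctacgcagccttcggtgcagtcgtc
BEX2, chrX:103310991-103311240, minus strand: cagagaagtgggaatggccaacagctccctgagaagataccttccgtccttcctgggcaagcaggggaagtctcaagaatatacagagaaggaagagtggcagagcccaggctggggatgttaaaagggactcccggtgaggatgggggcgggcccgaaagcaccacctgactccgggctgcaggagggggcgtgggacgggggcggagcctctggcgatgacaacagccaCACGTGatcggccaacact
BEX4, chrX:103214858-103215107, plus strand (the second of its 2 listed starts): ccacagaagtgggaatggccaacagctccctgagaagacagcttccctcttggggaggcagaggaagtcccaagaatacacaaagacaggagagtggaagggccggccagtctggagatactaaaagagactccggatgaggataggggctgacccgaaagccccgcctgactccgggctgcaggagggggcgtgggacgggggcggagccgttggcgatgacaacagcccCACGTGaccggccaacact
BEX5, chrX:102155978-102156227, minus strand (the second of its 2 listed windows): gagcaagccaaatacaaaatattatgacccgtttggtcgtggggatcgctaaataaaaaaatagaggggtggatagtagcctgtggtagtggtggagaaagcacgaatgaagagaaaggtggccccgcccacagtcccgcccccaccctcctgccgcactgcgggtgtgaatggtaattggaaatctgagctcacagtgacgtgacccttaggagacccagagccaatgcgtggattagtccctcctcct
BEX2 and BEX4, transcribed in opposite directions, were identical at 214 of 253 aligned positions (84.6%) and shared a run of 45 bases. BEX1 was closest to the second listed start of BEX3, at 190 of 266 positions (71.4%) with a shared run of 35 bases, and matched BEX2 at 51.8% of positions. The E-box stood once in the printed windows of BEX1, BEX2 and BEX4 and was not among the letters of the other BEX4 window or of either BEX5 window, while 6.34% of 35116 promoter windows of the same length held it. Of other motifs searched on both strands, TGGGAA, which holds the core of the Notch effector RBPJ's motif, stood once in BEX2 and once in BEX4 (20.8% of all windows), and TATAAA was in none of the member windows (10.7%). GGGCGG, the GC box, stood 2 times in BEX2, once in BEX4 and 2 times in the printed BEX5 window, but not in that of BEX1 (42.6%). The BEX1 window held 19 CpG dinucleotides, against 11 in BEX2, 12 in BEX4 and 10 in BEX5 and a median of 11 over all windows. Fewer than in BEX1 were found in 65.4% of all windows, and the BEX3 windows held 4, 18 and 25.

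Several facts of the arrays bear on the values. Arrays of the same group correlated at 0.997 to 0.998 in the co-culture experiment and 0.986 to 0.993 in the hairpin experiment, and arrays of different experiments at 0.942 to 0.951. Between the groups of an experiment r was 0.993 to 0.995 with co-culture and 0.986 to 0.994 with the hairpins. The hairpin groups thus correlated with each other no less than arrays of the same hairpin group did. Actin probe sets at the 3′ end exceeded those at the 5′ end by 2.30 to 2.71 in the former and by 0.57 to 0.83 in the latter (log2), a gap that widens in degraded RNA, and no test was made across experiments. Of 16 markers of the T-cell leukemia identity, 15 read above the array median in all 8 arrays, and 0 of these 15 passed the threshold in either contrast (limma, 0 higher and 1 lower with unadjusted p under 0.05 with co-culture, 3 and 6 with the hairpin, where 8.98% of filtered genes had such a p). The hairpin differences of these markers included -0.96 for CD1A, -0.90 for RAG1 and -0.98 for CD2. Both arrays with the TLX1 hairpin lay below both controls for each of them. ZAP70 (0.39), CD247 (0.61) and LCK (0.34) went the other way, with both TLX1 hairpin arrays above both controls. The hairpin groups did not overlap for 29.6% of all genes. The mean value of 11 chromosome Y genes was 7.21 and 7.08 without stroma, 4.50 and 4.55 on stroma and 6.62 to 7.45 in the hairpin arrays, a difference that cannot be told apart from co-culture in this design. Whether the cells with and without stroma were the same clone or stock of ALL-SIL was not tested, and a difference of that kind cannot be told apart from co-culture in the BEX1 values either. The hairpin's target TLX1 read 8.66 and 8.27 with the control and 7.98 and 7.88 with the TLX1 hairpin, a change of -0.53 that did not pass the threshold (limma adjusted p = 0.334).

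BEX1 separated the co-cultured cells from every other array. Its probe set read 4.56 and 4.83 without stroma, 7.90 and 7.83 on OP9-DL1, 3.42 and 3.36 with the control hairpin and 3.55 and 3.46 with the TLX1 hairpin (log2 values, on a scale where the array median lies between 5.29 and 5.30). Only the 2 co-cultured arrays lay above the array median, and the groups of that experiment did not overlap. The difference between group means was 3.17, from 4.69 ± 0.19 to 7.86 ± 0.05 (SD, n = 2), and the differences between single arrays ran from 3.0 to 3.34. It is a 9.0-fold difference on this scale, and since the gene read below the median without stroma, where array values are compressed, its true size is not known. In RNA from a whole culture, more cells with the transcript and more transcript per cell cannot be told apart. Whether RNA of the mouse stroma added to the reading on OP9-DL1 was not tested.

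The other members gave no such step. BEX4 was the member that read above the array median in all 8 arrays, at 7.40 and 7.19 without stroma, 7.27 and 7.33 on stroma, 7.71 and 7.77 with the control hairpin and 7.66 and 7.33 with the TLX1 hairpin. Its co-cultured arrays lay within the range of those without stroma, with a mean difference of 0.00 and single-array differences of -0.13 to 0.14. BEX2 read 3.56 and 3.45 without stroma, 3.6 and 3.51 on stroma, 4.01 and 4.06 with the control hairpin and 4.16 and 3.90 with the TLX1 hairpin. It was below the median everywhere, and its groups overlapped within both experiments.

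BEX5, the member of which least is known, also read below the median in all arrays: 4.49 and 4.39 without stroma, 4.30 and 4.33 on stroma, 4.20 and 4.20 with the control hairpin and 4.67 and 4.49 with the TLX1 hairpin. Its co-cultured values lay under both values without stroma, by 0.06 to 0.19 between single arrays. The groups of the co-culture experiment were thus apart for 2 of the 4 members, 1 higher and 1 lower, where they were apart for 50.5% of all genes (28.0% higher, 22.6% lower). As background, limma called 0.618% of the 13102 genes with a value above the array median in at least 2 arrays, and 0.571% of all 19775 genes, in the co-culture contrast at an adjusted threshold of 0.05 (7.42% and 6.31% at an unadjusted p under 0.05). No call of a member is given in that contrast, since the family was chosen for it. BEX1 itself passed the filter only through its co-cultured arrays.

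The order of the groups differed between members. BEX1 rose in order from the control hairpin (mean 3.39) over the TLX1 hairpin (3.51) and no stroma (4.69) to co-culture (7.86), with no overlap between neighbours. The step of 1.19 between the TLX1 hairpin group and the cells without stroma lies between experiments, where culture, vector and RNA quality cannot be told apart. For BEX2 and BEX4 the order of the means ran the other way between experiments, with the hairpin groups higher. The co-cultured and hairpin arrays of BEX2 were apart by 0.47 in their nearest means, while the groups within each experiment overlapped. For BEX4 the step between the nearest groups of different experiments was 0.19, and a TLX1 hairpin array (7.33) lay below an array without stroma (7.40). BEX5 was lowest with the control hairpin (4.20) and highest with the TLX1 hairpin (4.58), the latter overlapping the cells without stroma (4.44).

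The hairpin comparison was not used to choose the genes, so it was tested. No member passed in it: 0 of 4 by limma, with 1 member at an unadjusted p under 0.05. Among all genes 0.0916% of the filtered and 0.0607% of all genes passed, and 9.0% of all genes (8.98% of the filtered) had an unadjusted p under 0.05. BEX5 was 0.38 higher with the TLX1 hairpin (95% interval 0.13 to 0.63, limma adjusted p = 0.374), and both of its TLX1 hairpin arrays lay above both controls. BEX4 differed by -0.25 (interval -0.57 to 0.08, limma adjusted p = 0.665), with both TLX1 hairpin values under both controls. BEX1 differed by 0.12 (interval -0.17 to 0.40, limma adjusted p = 0.835), so a step of the size seen with co-culture lies outside that interval. BEX1 was below the median in all 4 hairpin arrays. The fit shares its spread over both experiments, whose groups had a median SD over genes of 0.04 to 0.06 (co-culture) and 0.11 to 0.17 (hairpin). The hairpin intervals, also that of BEX3 below, may therefore be too narrow. With only the 2 hairpin groups fitted, the unadjusted limma p of BEX5 went from 0.00779 to 0.0433. BEX2 differed by -0.01 (interval -0.29 to 0.27, limma adjusted p = 0.994). The TLX1 and control arrays did not overlap for 3 of the 4 members, 2 higher and 1 lower, and for 29.6% of all genes (14.6% higher, 15.0% lower). The count of 12 passing genes in this contrast rests on which arrays enter. It was 1796 without shRNA_control replicate 1, 38 without its replicate 2 and 0 without any of the other 6 arrays (limma, 769 to 1299 at an unadjusted p under 0.05). The adjusted p of BEX5 was 0.106 without shRNA_control replicate 1.

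**Figure D1:**
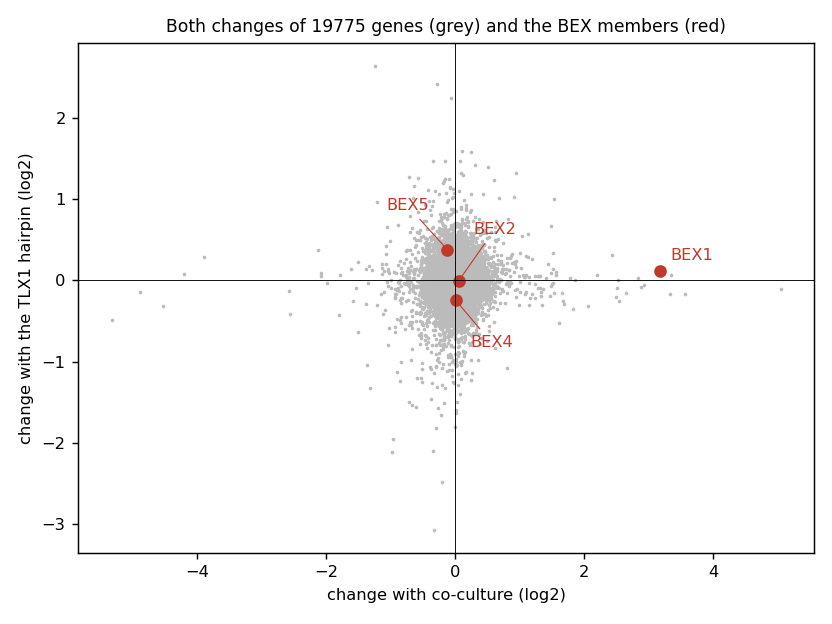
Change with co-culture (x axis) against change with the TLX1 hairpin (y axis), both as differences of group means in log2, for 19775 genes (grey dots) and the 4 members (red). BEX1 lies far to the right at 3.17 and 0.12, while BEX2, BEX4 and BEX5 lie within the cloud of genes near 0.

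BEX3, the fifth gene of the family and the closest to BEX1 in promoter sequence, read below the array median throughout. Its values were 3.91 and 4.10 without stroma, 4.21 and 4.20 on stroma, 3.37 and 3.72 with the control hairpin and 4.08 and 3.92 with the TLX1 hairpin. The hairpin difference was 0.45 (interval 0.12 to 0.78, limma adjusted p = 0.413). Its co-culture difference of 0.20 was small beside the 3.17 of BEX1. Probe sets of BEX3 and BEX4 carry the suffix _s_at, which Affymetrix gives to probe sets that may read more than a single transcript. The probe sets that stand for NXF3, LMO2, S100A8, CYBB and TMCO6 below carry it too.

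The genes around BEX1 on Xq22 were compared through a list of 27 BEX, TCEAL, ARMCX, GPRASP and neighbouring genes, of which 22 had a probe set of their own. Of these, 12 read below the array median in all arrays and 6 above it in all arrays. In the fit of all genes with no filter, 2 of the 22 rose with co-culture, 0 fell and 20 did not pass, beside 0.369% of all genes rising and 0.202% falling. Of the 9 that passed the filter on dim values, 0 passed (limma, 0 at an unadjusted p under 0.05). The median change of the 22 was -0.01, against 0.01 over all genes. TCEAL4, a member of the family of transcription elongation factor-like proteins, read 3.11 and 3.33 without stroma, 4.62 and 4.89 on stroma and 3.47 to 3.66 in the hairpin arrays. It rose by 1.53 on the log2 scale without reaching the median of any array. NXF3, the next gene after BEX1, read 3.96 and 3.91 without stroma, 4.69 and 4.63 on stroma and 3.92 to 4.05 in the hairpin arrays. Its rise of 0.72 was also below the array median, and a second probe set of NXF3 differed by only 0.12. The third largest difference among the 22 was 0.31, in TCEAL8, which lies next to BEX4, and it did not pass. The groups did not overlap for 13 of the 22 (7 higher, 6 lower), which is 59.1%, against 50.5% of all genes.

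With the TLX1 hairpin 0 of the 22 neighbours passed. By limma 4 of them (BEX3 among these) were higher and 0 lower before adjustment at 0.05, beside 9.0% of all genes in either direction. Their median difference was 0.02 in the fit with no filter, against -0.00 over all genes, and their differences ran from -0.32 (ARMCX3, a mitochondrial armadillo-repeat protein gene) to 0.65 (RAB9B, a small GTPase gene). TCEAL4 and NXF3 differed by -0.16 and -0.12.

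**Figure D2:**
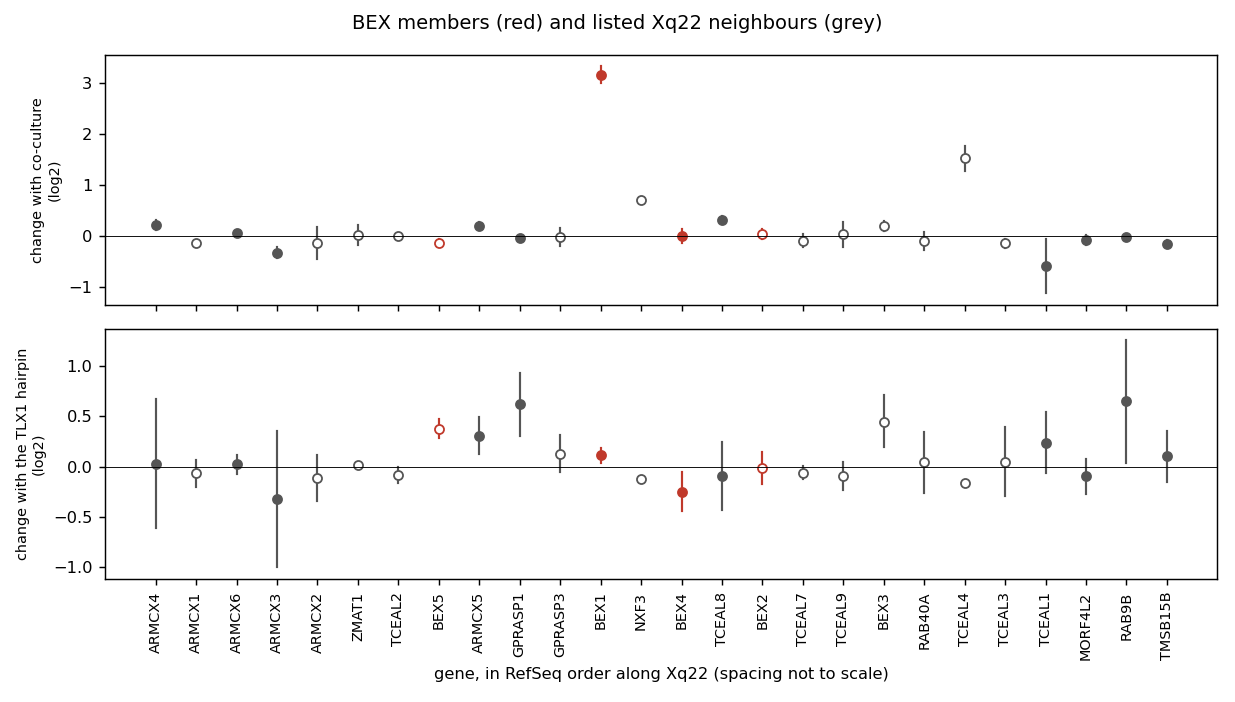
Change with co-culture (top) and with the TLX1 hairpin (bottom), as log2 differences of group means, for members (red) and listed neighbours (grey) in RefSeq order along Xq22; bars span the 4 differences between single arrays, and open circles are genes below the median in all 8 arrays. BEX1 at 3.17, TCEAL4 at 1.53 and NXF3 at 0.72 are the only genes above 0.5 in the top panel, and 0 of those shown passed the threshold in the bottom panel.

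No listed gene of the receptor pathway that BEX proteins are known to bind passed the threshold. Of 27 listed genes of the neurotrophin receptor pathway, 20 had a probe set and 16 were tested. By limma 0 of the 16 rose and 0 fell with co-culture, with 0 at an unadjusted p under 0.05, and their median change was 0.05 against 0.02 over the genes tested. The receptor NGFR itself read 3.46 to 3.61 in the co-culture experiment and 3.75 to 4.13 in the hairpin experiment, below the median in all arrays. The receptor-interacting MAGE genes MAGED1 and MAGEH1 read above the median in all arrays. With the TLX1 hairpin 0 of the 16 passed (limma, with unadjusted p under 0.05 for 1 higher and 1 lower). NTRK3, the receptor of neurotrophin-3, read 6.0 and 6.05 with the control and 6.31 and 6.46 with the TLX1 hairpin.

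Of 18 genes of the LMO2 and LDB1 complex, 15 were tested, and with co-culture 1 rose, 0 fell and 14 did not pass (limma, beside 0.366% of genes rising and 0.252% falling). The gene that rose was LMO2, which passed the filter only through its co-cultured arrays, from 4.27 and 4.69 to 5.64 and 6.02, with 3.29 to 3.80 in the hairpin arrays. Its second probe set changed by 0.17 and stayed below the median. The LMO2 partner LDB1 read 7.97 and 8.13 without stroma and 8.30 and 8.13 on stroma. BEX2, the family member known from this complex, did not step up with LMO2, as given above. With the TLX1 hairpin 0 of the 15 passed and 0 had an unadjusted p under 0.05 by limma.

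Among the members only BEX1 spanned over 1 log2 unit across the arrays, so genes of like pattern were sought for it alone, among the 13102 tested. Likeness was measured over the 8 log2 values by Pearson's r and by the root mean square distance between profiles centred on their own mean. The points share a strong step in 2 arrays and a step between experiments, so a high r is a description only. DEFA4, a neutrophil defensin gene, was first by both measures, with r = 0.9991 and a distance of 0.19. It read 5.58 and 5.76 without stroma, 9.04 and 9.0 on stroma, 4.08 and 4.22 with the control hairpin and 4.26 and 4.17 with the TLX1 hairpin. It shared with BEX1 the lower readings in the hairpin arrays as well as the step with co-culture. By r the next were S100A8, a neutrophil calcium-binding protein gene (0.9940), CYBB, the gene of the phagocyte oxidase subunit (0.9881), TMCO6 (0.9855) and the neutrophil chemokine gene CXCL8 (0.9824).

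By distance DEFA4 was followed by the vesicle fusion gene VAMP8 (0.42), CXCL8 (0.46), the microsomal glutathione transferase gene MGST1 (0.49) and S100A8 (0.49). The co-culture changes of these genes were 3.56 for VAMP8, 3.35 for DEFA4, 3.24 for MGST1, 2.95 for CXCL8, 2.49 for S100A8, 0.83 for CYBB and 0.49 for TMCO6. Other probe sets of S100A8 (0.18), CXCL8 (0.58), CYBB (0.24, 0.01 and -0.09) and MGST1 (1.49, 1.44, 0.28 and -0.04) changed less. The CXCL8 probe set at 0.58 was the brighter on average but failed the filter on dim values. S100A8, CYBB, CXCL8, VAMP8 and MGST1, like BEX1, passed that filter only through the co-cultured arrays in which they are high. The genes searched were thus not chosen independently of the step with co-culture.

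**Figure D3:**
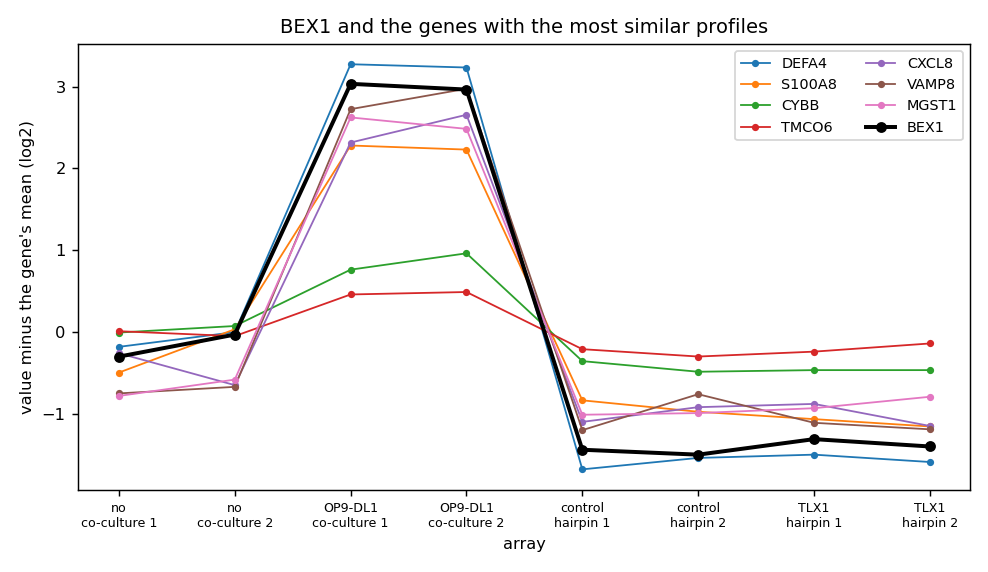
Log2 values minus each gene's own mean over the 8 arrays (y axis) for BEX1 (black) and the 7 genes with the most similar profiles; lines only join the values of a gene. DEFA4 follows BEX1 in every array at a root mean square distance of 0.19, whereas CYBB and TMCO6 have the same shape with changes of 0.83 and 0.49.

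Most of the listed granulocyte genes rose in the arrays in which BEX1 was high. Of 15 listed granulocyte genes, which include DEFA4 and S100A8, 11 rose with co-culture, 0 fell and 4 did not pass in the fit of all genes with no filter (limma, beside 0.369% of all genes rising), and their median change was 1.52 against 0.01 over all genes. With the filter on dim values 11 were tested and 10 rose (beside 0.366% of filtered genes), but RNASE2, PRTN3, S100A8, CSTA and MS4A3 passed that filter only through the co-cultured arrays in which they are high. CEBPE lay above the median in these arrays and in 1 control hairpin array, so it too needed the co-cultured arrays to pass. The list was written with these results known and is not independent evidence. RNASE2, an eosinophil granule ribonuclease gene, read 3.87 and 4.01 without stroma and 9.01 and 8.97 on it, and the myeloid transcription factor gene CEBPA 5.33 and 5.43 against 6.46 and 6.41. The mean value of the 15 genes was 4.74 and 4.79 without stroma, 6.54 and 6.58 on stroma and 4.36 to 4.48 in the hairpin arrays. The granule genes ELANE, LYZ and AZU1 stayed below the array median in all arrays, and MPO, the neutrophil peroxidase gene, read 8.69 and 8.69 without stroma and 7.82 and 8.13 on it. Neuron markers, the cell type BEX genes are best known from, showed no such move: of 10 markers 4 were tested and 0 passed with co-culture (limma, 0 at an unadjusted p under 0.05), and their mean was 5.39 and 5.4 without stroma and 5.41 and 5.34 on it. Of 20 fibroblast and stromal markers 14 were tested and 0 passed (limma, with unadjusted p under 0.05 for 1 lower and 0 higher). The mean of the 20 was 5.53 and 5.76 without stroma, 5.77 and 5.49 on it and 4.81 to 4.92 in the hairpin arrays. Both groups of the co-culture experiment, also the one without stroma, thus read higher than the hairpin arrays, and the cause was not tested. Of the 11 chromosome Y genes 10 were tested, and 6 fell with co-culture, 0 rose and 4 did not pass (limma, beside 0.252% of genes falling). The changes of the 11 ran from -5.33 to 0.03. The part of granulocyte gene expression and of the chromosome Y difference in the BEX1 result was not tested.

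**Figure D4:**
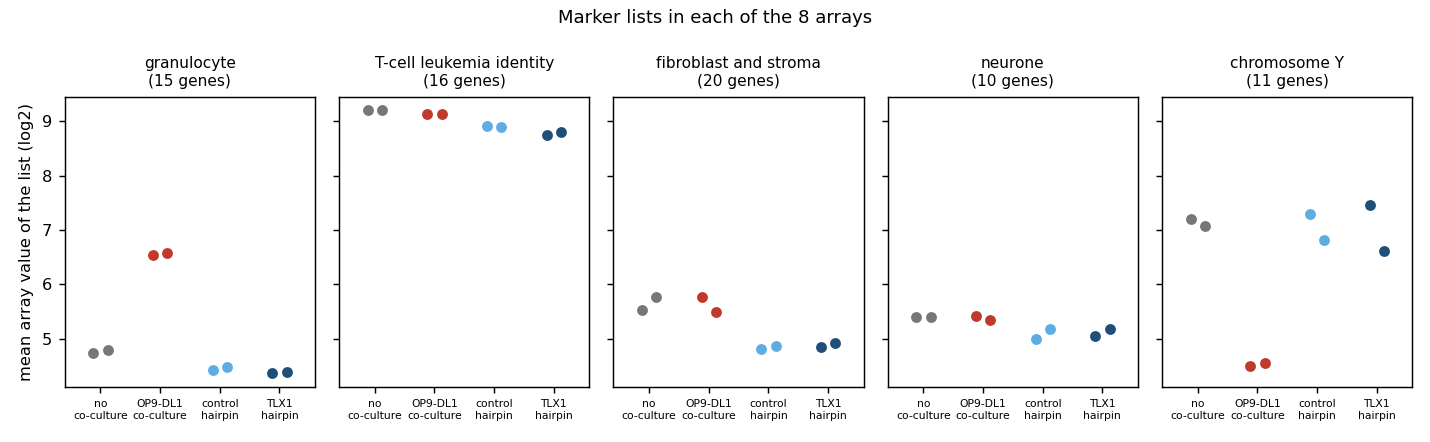
Mean log2 value of each of 5 marker lists (y axis) in the 4 groups, with a dot per array. The granulocyte list is at 6.54 and 6.58 on OP9-DL1 and at 4.36 to 4.79 elsewhere, and the chromosome Y list is at 4.50 and 4.55 on OP9-DL1 and at 6.62 to 7.45 elsewhere.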

How the data were processed

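Gene expression of ALL-SIL cells was read on 8 arrays in 4 groups of 2, taken from the sample titles. The authors deposited log2 values; the submitters' processing notes name RMA, affy and R 2.9.0, and background and summary settings are not given in the sources used here. Values ran from 2.15 to 14.3 over all arrays together, and the array medians from 5.29 to 5.3. Quantile normalization, the usual step of RMA, hides any shift common to a whole array. The number of arrays limits the precision. Of 54675 probe sets, 41097 had 1 gene symbol, 1801 several and 11777 none. By gene identifier 41043 matched RefSeq's table and 0 symbols changed.

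Probe sets had to exceed their array's median in 2 or more of the 8 arrays, and among those left the brightest on average stood for its gene (13102 genes). Members failing this (BEX2 and BEX5) and dim neighbours were fitted with all 19775 genes. The test was limma 3.58.1 in R 4.3.3, with a mean per group, eBayes and Benjamini-Hochberg adjustment over all genes fitted, at 0.05. The fits were run on simulated data in which each gene had the same spread in all 4 groups. The arrays differ in spread between experiments, so that run cannot show how sharing the spread affects the calls. Promoter windows were aligned globally with free end gaps in Biopython 1.88.

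Members and lists were chosen with earlier results of these data known. Named genes are the members and the 5 genes most like a member spanning at least 1 log2 unit (by each of 2 measures). Up to 4 genes per list were named by smallest p. Other list genes named (NGFR, TCEAL8, ARMCX3, RAB9B, LDB1, MAGED1, MAGEH1, CEBPA, CEBPE, CSTA, MS4A3, ELANE, LYZ, AZU1, MPO, ZAP70, CD247, LCK) were chosen after their values were seen. Alternatives were other filters, probe set means, fits of only the compared groups, trend, array weights, centring, a replicate block and leaving out each array.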

Additional observations from a re-analysis of the deposited data

How the results depend on the processing

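Of the alternatives run, 0 ended or made a call for a member in the hairpin contrast, and the co-culture change of BEX1 lay between 3.03 and 3.30. Its hairpin difference lay between 0.07 and 0.16 (limma adjusted p 0.537 to 1.0), that of BEX4 between -0.41 and -0.08 (0.295 to 1.0) and that of BEX5 between 0.29 and 0.47 (0.106 to 1.0). The hairpin difference of BEX2 changed sign: leaving out single arrays gave -0.14 to 0.12, with 0.02 without shRNA_control replicate 2 and 0.12 without shRNA_TLX1 replicate 2. BEX1 has no value under the stricter filter, and BEX2 and BEX5 have none under either filter on dim values.

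The counts of called genes moved more. In the co-culture contrast 81 genes became 866 when only its 2 groups were fitted, 1350 with array weights, 25 under the stricter filter, and 29 to 217 with single arrays left out (38 without no_TCR_activation replicate 1, 30 without replicate 2, 29 and 32 without TCR_activation replicates 1 and 2, 217 without either shRNA_control array). In the hairpin contrast 12 became 0 when only its 2 groups were fitted (limma, 421 at an unadjusted p under 0.05), 1 with array weights, and 0 to 1796 with single arrays left out. The cause was not tested.

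The labels number the replicates of each group alike without saying what the number marks. Deviations of same-numbered arrays correlated at -0.144 in the co-culture experiment and 0.353 in the hairpin experiment. With the replicate number as a block 73 and 9 genes were called, and no member passed in the hairpin contrast; with the numbers crossed in the co-culture experiment, an alternative chosen after seeing the data, 71 were called there. Below the array median, where BEX2 and BEX5 lie throughout and BEX1 lies in 6 arrays, signal is nearer to background, so a small change there could be missed.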
